A study of Mus musculus with 6 samples.

Results

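The transcripts of integrins and of the adaptor proteins that tie them to the actin cytoskeleton were examined in the left ventricular myocardium of mice with heart failure with preserved ejection fraction (HFpEF) and of controls. Members were the protein-coding genes whose symbol begins with Itga or Itgb followed by a letter or a number, which gave 28 genes, and 18 named adaptors (Tln1, Tln2, Vcl, Ilk, Parva, Parvb, Lims1, Lims2, Ptk2, Pxn, Zyx, Fermt2, Fermt3, Bcar1, Src, Actn1, Actn4 and Flna). The list therefore held 46 of the 54532 gene identifiers measured. One of the 28, Itgbl1, encodes a secreted protein that resembles a beta subunit but does not pair with an alpha subunit, and it is described apart from the receptors.

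The mice were male C57BL/6 animals, 6 to 8 weeks old at entry, and each group had 3 RNA-seq libraries. Chow mice received standard chow and regular drinking water. HFpEF mice received for 12 weeks a high-fat diet with 60% of its calories from fat, together with 0.5 g/L of the nitric oxide synthase inhibitor L-NAME in the drinking water. No group received the diet or L-NAME alone, so the effects of the diet and of the drug cannot be told apart, and no female mice were included. The labels name the tissue as heart, and by the methods of the study it was left ventricular myocardium, with the 3 replicates of a group taken from separate mice.

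Integrins are receptors made of 1 alpha and 1 beta chain that span the cell membrane and hold the cell to the extracellular matrix or to other cells. The chains decide the ligand: some alpha chains bind laminin, others collagen, others the Arg-Gly-Asp (RGD) motif of fibronectin and vitronectin, and a further set is made by leukocytes. Inside the cell, talin and kindlin bind the beta tail and switch the receptor on, the complex of ILK, PINCH (Lims1 and Lims2) and parvin is assembled on it, the kinases FAK (Ptk2) and Src signal from it, and vinculin, alpha-actinin, zyxin and filamin connect it to actin. In the heart muscle cell these proteins form the costamere, which joins the Z-disc to the surrounding laminin.

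Reads on genes recovered from the deposited FPKM values summed to 13076772 to 15574914 in the Chow group and 13461735 to 16027084 in the HFpEF group. The denominator implied by the FPKM scale, in reads, was 14239712, 11734336 and 12093541 in Chow replicates 1, 2 and 3. It was 13847565, 16942925 and 19316914 in HFpEF replicates 1, 2 and 3. The recovered sums did not match these denominators. HFpEF replicate 3 had the largest denominator, but HFpEF replicate 2 had the largest recovered sum, at 16027084. Median-of-ratios factors of the FPKM values were 0.999 to 1.00. The FPKM values were thus already level between libraries by that measure, and the denominators need not be read totals. Read counts given for a gene are not adjusted for depth. HFpEF replicate 3 stood apart: mitochondrial genes took 7.17% of its reads against 22.6% and 20.1% in HFpEF replicates 1 and 2 and 24.0 to 26.0% in the Chow libraries, and on the first principal component, which held 42.3% of the variance, it lay at 75.5 against 11.6 and 12.7 for the other HFpEF libraries. The tissue label was checked with 10 ventricular cardiomyocyte markers, whose summed FPKM was 16222 to 17988 in the Chow group and 11486, 12125 and 7938 in HFpEF replicates 1, 2 and 3, while 7 skeletal muscle markers summed to 1.51 to 2.82 in all libraries. The joint list of smooth muscle and pericyte markers varied widely within the HFpEF group. Its summed FPKM was 704, 237 and 530 against 323 to 367 in the Chow group. Acta2 alone held 421, 48.8 and 262 of these HFpEF sums. The median log2 ratio of the list to the Chow mean was -0.07, -0.50 and 0.40. Adipocyte markers, at 0 to 0.0481 in the Chow group, summed to 89.2, 88.2 and 36.6. In these bulk samples, fewer cells of a type and less RNA per cell cannot be told apart.

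The question of the comparison was which integrin and adhesion transcripts differ between the HFpEF and the Chow myocardium. Most tested members had a positive estimate, and the differences were not called once all genes were taken into account. Of the 40 members that passed the filter on low values (22 subunits including Itgbl1, and all 18 adaptors), 29 had a positive log2 fold change (48.8% of all genes did) and 11 a negative one. Their median log2 fold change was 0.35, beside -0.01 over all 14225 genes tested. The largest fitted increases belonged to Itga8, Itgb3, Itgbl1, Itgam, Itgb4, Flna and Actn1, and the largest decreases to Itgb6 and Itga7.

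No member reached an adjusted p of 0.05 with limma and Benjamini-Hochberg adjustment over all genes. Thus 0 of 40 met both limits of a call, the other being a change of 2 or more on the log2 scale in either direction. The background was low as well: 0.0984% of all genes passed the adjusted p alone and 0.0562% passed both limits. The methods of the study give the same limits, but for DESeq2 on read counts. Here limma on FPKM took its place, so these calls are not those of the study. The lowest adjusted p values by limma were 0.0963 for Itgb4 and 0.0988 for Src. At an unadjusted p under 0.05, 16 members passed (23.3% of all genes did), 14 of them higher (10.2% of all genes) and 2 lower (13.1% of all genes). The 14 were Itgav, Itga11, Itgam, Itgax, Itgb3, Itgb4, Itgb8, Itgbl1, Flna, Actn1, Zyx, Src, Fermt3 and Parva, and the 2 were Itga7 and Itgb6. The voom test on the recovered reads gave 0 members by adjusted p and 17 by unadjusted p, beside 0.0% and 23.4% of all genes. All 3 HFpEF libraries lay above all 3 Chow libraries for 17 members (15.5% of all genes) and below them for 5 (19.8% of all genes), which is 22 members in all (35.3% of all genes). With 3 libraries against 3, an exact permutation test of 1 gene cannot give a two-sided p below 0.1.

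**Figure D1:**
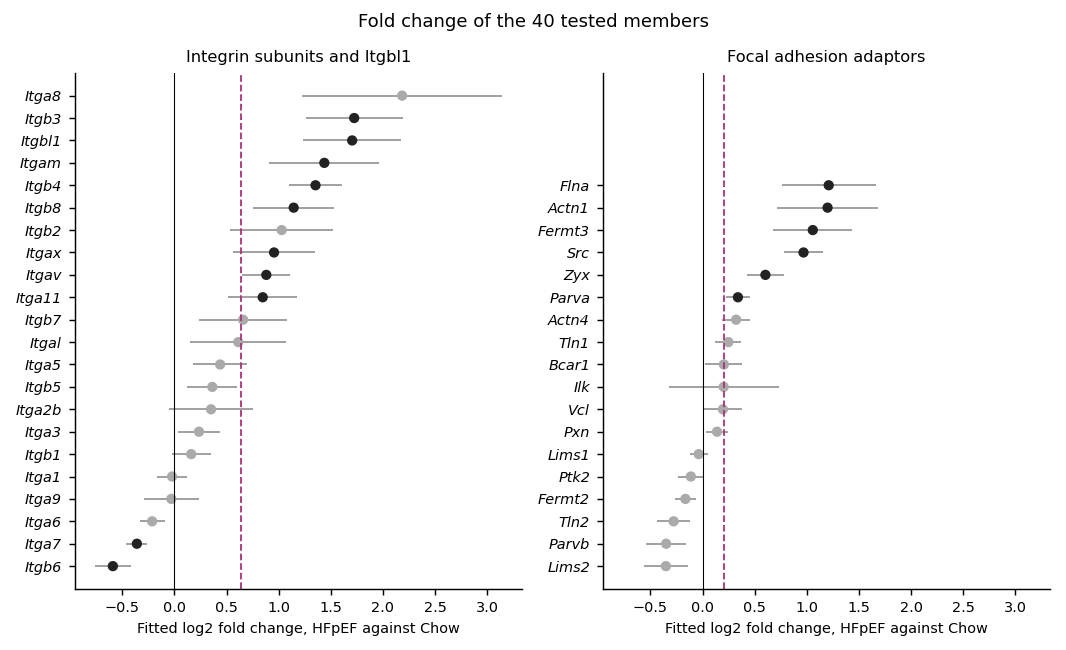
Each point is the fitted log2 fold change (HFpEF against Chow, horizontal axis) of 1 of the 40 tested members with its standard error as the bar, subunits and Itgbl1 in one panel and adaptors in the other. The subunits spread from -0.59 to 2.18 around a median of 0.64 and the adaptors from -0.35 to 1.21 around a median of 0.20.

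The filter bore on these counts. Itgam and Itgb8 passed it only through their HFpEF libraries, and without them 12 members were higher at an unadjusted p under 0.05. Both also counted among the 29 members with a positive estimate and the 17 that lay above all Chow libraries. The median log2 fold change of the other 38 members was 0.33. The members not tested were Itga2, Itga4, Itga10, Itgad, Itgae and Itgb2l. Itga4, the alpha chain of the VCAM-1 receptor, had an FPKM of 0.387, 0.415 and 0.266 in the Chow libraries and 0.696, 0.465 and 1.17 in the HFpEF libraries. Itga10, a collagen-binding chain, had 0.366, 0.313 and 0.271 against 0.57, 0.433 and 0.918. Both were higher in every HFpEF library than in every Chow library. Itga2, the collagen-binding chain of platelets and epithelia, overlapped between groups, at 0.227, 0.168 and 0.243 against 0.303, 0.232 and 0.552. The leukocyte chains were near the limit of detection: Itgad had 6 to 15 reads in Chow and 1 to 5 in HFpEF libraries, Itgae 1 to 6 and 9 to 33, and Itgb2l was read only in HFpEF replicate 2, with 4 reads. Exons of Itga10 and Itgad share 33.5% and 19.7% of their bases with other gene models.

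The beta subunits set the scale of the system. Itgb1, the partner of most alpha chains, was the most abundant member of all, and Itgb5, a partner of alpha v, was the second beta chain. Itgb1 had an FPKM of 107, 108 and 124 in the Chow libraries and 124, 102 and 160 in the HFpEF libraries (log2 fold change 0.16, SE 0.19, adjusted p = 0.621 by limma). Its groups overlapped, and the estimate was -0.01 without HFpEF replicate 3. For Itgb5 the FPKM was 39.6, 39.4 and 40.6 in the Chow group and 47.0, 38.4 and 74.8 in the HFpEF group (0.36, SE 0.24, adjusted p = 0.384 by limma). HFpEF replicate 2 lay below every Chow library, and replicate 3 was the highest of all.

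The rarer beta chains moved further. Itgb4 (chr11:115974709-116008412), the partner of alpha 6 in hemidesmosomes, had an FPKM of 0.621, 0.681 and 0.495 in the Chow libraries and 2.00, 1.26 and 1.85 in the HFpEF libraries. The groups did not overlap, and the lowest HFpEF library lay well above the highest Chow library. The log2 fold change was 1.35 (SE 0.25, adjusted p = 0.0963 by limma). Itgb3 (chr11:104608000-104670476), the beta chain of the vitronectin receptor and of the platelet fibrinogen receptor, had an FPKM of 0.56, 0.926 and 0.603 against 2.30, 1.33 and 4.90 (1.72, SE 0.46, adjusted p = 0.124 by limma). Its groups were apart too, with HFpEF replicate 3 highest and replicate 2 nearest to the Chow range. Itgb8, which with alpha v activates latent TGF-beta, had 0.40, 0.262 and 0.464 against 0.639, 0.859 and 1.46 (1.14, SE 0.39, adjusted p = 0.166 by limma). Itgb6 is the other alpha v partner that activates latent TGF-beta, and its values went the opposite way, with 3.48, 3.26 and 2.73 in the Chow and 2.26, 2.27 and 1.69 in the HFpEF libraries (-0.59, SE 0.17, adjusted p = 0.137 by limma). Every HFpEF library lay below every Chow library for Itgb6 and above for Itgb8, but Itgb8 passed the filter only through its HFpEF libraries.

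In the Chow group the order of the beta chains by FPKM, which is per length, was Itgb1 (113 ± 9.70, SD, n = 3), Itgb5 (39.8 ± 0.628), Itgb6 (3.16 ± 0.384), Itgb2 (3.11 ± 0.213), Itgb7, Itgb3 (0.696 ± 0.200), Itgb4 (0.599 ± 0.0950) and Itgb8 (0.375 ± 0.103). Itgb6 and Itgb2 did not differ beyond their spread, nor did Itgb3 and Itgb4. In the HFpEF group Itgb1 (128 ± 29.3) and Itgb5 (53.4 ± 19.1) still led, while Itgb2 (7.85 ± 6.21) and Itgb3 (2.84 ± 1.85) stood above Itgb6 (2.07 ± 0.332) on average, by less than the spread between libraries.

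**Figure D2:**
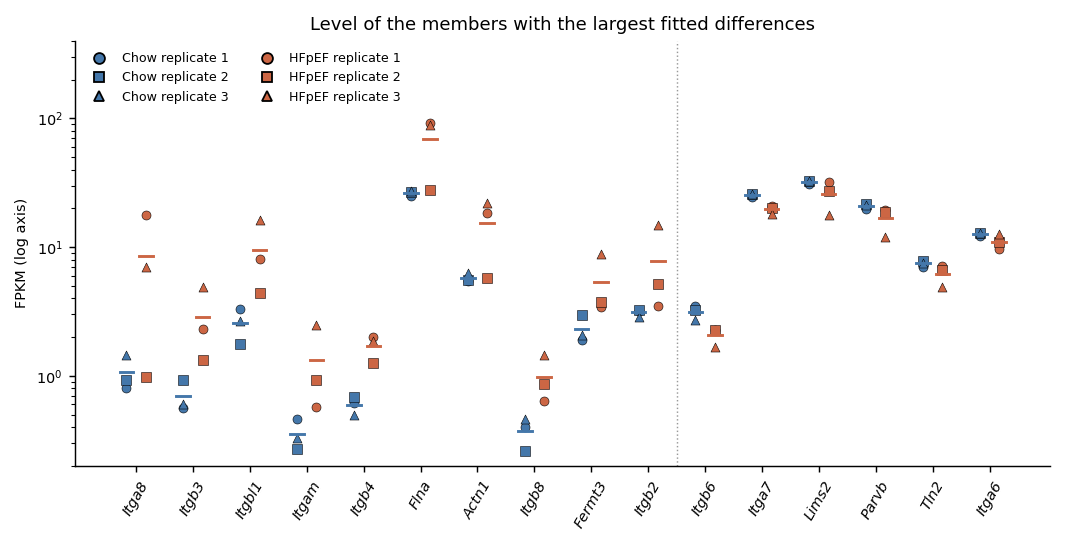
FPKM on a log axis in each of the 6 libraries for the members with the largest fitted increases (left of the dotted line) and decreases (right of it), each point 1 library with its group given by colour and its replicate by shape, and each short bar a group mean. Itgb4 and Itgb3 separate fully between groups, whereas for Itga8, Flna and Actn1 HFpEF replicate 2 sits beside the Chow libraries.

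Among the alpha chains, the laminin receptor Itga7 was lower and the RGD-binding chain Itgav higher in every HFpEF library than in every Chow library, while Itga8 was higher in HFpEF replicates 1 and 3. Itga7 (chr10:128933818-128958282), the main laminin-binding alpha chain of muscle fibres and the most abundant alpha chain here, had an FPKM of 24.4, 25.7 and 25.9 in the Chow and 20.9, 20.3 and 18.1 in the HFpEF libraries. The 3 HFpEF values lay close together below the Chow range. Its log2 fold change was -0.36 (SE 0.10, adjusted p = 0.127 by limma). Itga6, which is laminin-binding as well, had 12.3, 12.9 and 12.9 against 9.58, 10.9 and 12.5 (-0.21, SE 0.12, adjusted p = 0.32 by limma), and Itga3 had 4.02, 3.48 and 4.26 against 5.54, 5.13 and 3.46 (0.24, SE 0.20, adjusted p = 0.483 by limma). For both genes HFpEF replicate 3 fell among the Chow values or below them, and the groups overlapped.

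Itgav (chr2:83724397-83806916), the common alpha chain of the vitronectin and TGF-beta-activating receptors, had an FPKM of 2.86, 2.76 and 3.33 in the Chow and 5.03, 4.34 and 7.90 in the HFpEF libraries. All HFpEF libraries were above all Chow libraries, and the log2 fold change was 0.88 (SE 0.23, adjusted p = 0.12 by limma). Itga8 (chr2:12106632-12301922), a fibronectin and nephronectin receptor of smooth muscle and other contractile mesenchymal cells, had the largest fitted difference of any member and the least even one. Its FPKM was 0.81, 0.927 and 1.46 in the Chow libraries and 17.8, 0.977 and 6.99 in the HFpEF libraries (2.18, SE 0.96, adjusted p = 0.23 by limma). HFpEF replicate 2 was within the Chow range while the other HFpEF libraries were far above it, and without replicate 2 the estimate was 3.31 (adjusted p = 0.0736 by limma). Itga5, the classical fibronectin receptor, had 11.2, 12.0 and 12.2 against 14.1, 12.0 and 24.5 (0.44, SE 0.26, adjusted p = 0.335 by limma), again with HFpEF replicate 2 in the Chow range. Itga2b, the platelet alpha chain, overlapped between groups (0.35, SE 0.40, adjusted p = 0.61 by limma).

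The collagen-binding chains split. Itga11, a fibrillar collagen receptor of fibroblasts, had an FPKM of 0.671, 0.832 and 1.08 in the Chow and 1.43, 1.13 and 2.52 in the HFpEF libraries (0.85, SE 0.33, adjusted p = 0.198 by limma), with no overlap. Itga1, a receptor for collagen IV, had 4.02, 3.92 and 4.08 against 4.02, 3.29 and 4.63 (-0.02, SE 0.15, adjusted p = 0.938 by limma), and its HFpEF libraries fell on both sides of the Chow range. Itga9, which binds tenascin and osteopontin, overlapped as well, with HFpEF replicate 2 lowest at 5.99 and the rest between 7.92 and 11.5 (-0.03, SE 0.26, adjusted p = 0.954 by limma). Itgbl1, the secreted beta-like protein, had 3.31, 1.76 and 2.66 against 8.08, 4.44 and 16.2 (1.71, SE 0.47, adjusted p = 0.127 by limma), every HFpEF library being above every Chow library.

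The share of each ligand class was taken in the summed FPKM of Itga1 to Itga11 and Itgav, without Itga2b and the leukocyte alpha chains, and is given as a description. Such a share does not depend on library scaling. Laminin-binding chains made up 58.8, 57.9 and 56.2% of the sum in the Chow libraries and 39.8, 55.7 and 35.9% in the HFpEF libraries. The RGD-binding chains Itga5, Itga8 and Itgav made up 21.8 ± 0.333% (SD, n = 3) in the Chow group and 40.7, 26.5 and 41.6% in the HFpEF libraries. Neither share overlapped between groups, though HFpEF replicate 2 lay close to the Chow values in both. Itga7 alone went from 34.8 ± 0.856% to 24.4 ± 6.17%. Its mean FPKM was 25.4 in the Chow group and 19.8 in the HFpEF group. A share also falls when other chains add to the sum. Itga8 added 17.8, 0.977 and 6.99 to the HFpEF sums, beside a Chow mean of 1.07. Itga5 added 14.1, 12.0 and 24.5, beside a Chow mean of 11.8. How far the shift in shares rests on Itga8 was not tested. The collagen-binding share was 7.40 ± 0.227% and 7.96 ± 1.07%, and the summed alpha FPKM was 72.9 ± 3.75 and 83.5 ± 16.1, both with overlap.

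**Figure D3:**
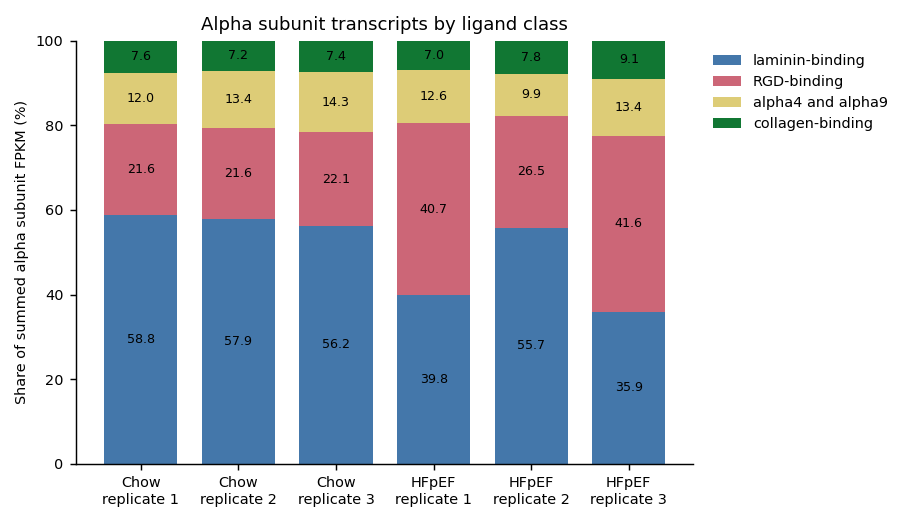
Stacked bars give the share (%) of summed alpha subunit FPKM (Itga1 to Itga11 and Itgav) that falls to each ligand class in each of the 6 libraries. The laminin-binding share is 39.8% and 35.9% in HFpEF replicates 1 and 3, against 55.7% in HFpEF replicate 2 and 56.2 to 58.8% in the Chow libraries.

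Among the beta chains that pair with alpha v, Itgb5 held 90.4% of the summed FPKM in the Chow group and 90.0% in the HFpEF group, on average. Below it, the share of Itgb3 was 1.58 ± 0.462% and 4.47 ± 1.41%, that of Itgb8 was 0.851% and 1.66%, and that of Itgb6 was 7.17% and 3.89%. The level of Itgav relative to the sum of Itgb3, Itgb5, Itgb6 and Itgb8 was -3.89 ± 0.14 in the Chow and -3.36 ± 0.047 in the HFpEF group on the log2 scale. This ratio did not overlap between groups and varied less among the HFpEF libraries than Itgav itself did.

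The leukocyte integrins were low, and the 5 that were tested had positive estimates, whereas the untested Itgad, described above, had fewer reads in every HFpEF library than in every Chow library. Itgb2, the shared beta chain of leukocytes, had an FPKM of 3.20, 3.27 and 2.87 in the Chow and 3.47, 5.13 and 15.0 in the HFpEF libraries (1.03, SE 0.50, adjusted p = 0.262 by limma). Itgam, its partner in the complement receptor of macrophages and neutrophils, had 0.461, 0.272 and 0.329 against 0.574, 0.928 and 2.47 (1.44, SE 0.53, adjusted p = 0.183 by limma). In both, the HFpEF libraries were above the Chow libraries, HFpEF replicate 3 stood far above the others and replicate 1 was just above the Chow range. Itgam passed the filter only through its HFpEF libraries. Itgax, the partner found on dendritic cells and macrophages, had an adjusted p of 0.212 by limma (0.96, SE 0.40), Itgal, the lymphocyte chain, 0.437 (0.61, SE 0.46), and Itgb7, the beta chain of the gut-homing receptor, 0.372 (0.66, SE 0.42). Of 10 macrophage markers, 10 had a positive estimate (48.8% of all genes did). Of these, 4 were higher in every HFpEF library than in every Chow library (15.5% of all genes were). Their summed FPKM was 240 to 303 in the Chow libraries and 297, 405 and 963 in HFpEF replicates 1, 2 and 3. Itgb2, Itgam and Itgb7 shared this order of HFpEF libraries. Itgax (0.735, 0.602 and 1.31) and Itgal (1.17, 0.440 and 1.15) did not, with replicate 2 lowest. The part of macrophages in the leukocyte values was not tested. Neutrophil markers summed to 1.40 to 4.21 in the Chow and 1.37 to 4.31 in the HFpEF libraries, with Ly6g and Ngp at 0 in every library, and 10 T and NK cell markers to 1.20 to 2.28 and 0.975 to 5.34. Exons of Itgam share 68.7% of their bases with another gene model on the same strand, Gm49368, which had at most 1 read in any library. How reads in shared bases were counted is not given, so the level of Itgam is uncertain.

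Of the 18 adaptors, 12 had a positive estimate (48.8% of all genes did). At an unadjusted p under 0.05, 6 were higher (Flna, Actn1, Zyx, Src, Fermt3 and Parva, beside 10.2% of all genes) and 0 lower (13.1% of all genes). Flna (chrX:74223461-74249820) encodes filamin A, which crosslinks actin and binds beta tails in competition with talin. Its FPKM was 24.9, 26.9 and 27.4 in the Chow libraries and 91.2, 27.9 and 89.4 in the HFpEF libraries. Actn1, the alpha-actinin of stress fibres, had 5.47, 5.51 and 6.32 against 18.5, 5.75 and 22.1. HFpEF replicates 1 and 3 were thus far above the Chow range for both genes, while replicate 2 was beside it or within it. The log2 fold changes were 1.21 (SE 0.45, adjusted p = 0.186 by limma) for Flna and 1.20 (SE 0.48, adjusted p = 0.205 by limma) for Actn1. Actn4, the second non-muscle alpha-actinin, had 22.7, 23.8 and 23.2 against 30.7, 24.2 and 33.1 (0.32, SE 0.14, adjusted p = 0.22 by limma), again with HFpEF replicate 2 just above the Chow range. Zyx, a stress fibre repair protein, had 14.9, 13.8 and 13.0 against 24.7, 16.3 and 23.4 (0.60, SE 0.17, adjusted p = 0.136 by limma), and here replicate 2 was above the Chow range as well. Vcl, vinculin, overlapped between groups at 11.1, 10.3 and 12.3 against 13.2, 9.97 and 16.1 (0.20, SE 0.18, adjusted p = 0.537 by limma), and 25.5% of its exon bases lie within Ap3m1 on the other strand.

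Other cell type markers differed among the same libraries. Acta2, smooth muscle actin, had an FPKM of 53.2, 73.2 and 77.9 in the Chow and 421, 48.8 and 262 in the HFpEF libraries. Myh11 shared this order of HFpEF libraries, with 63.6, 6.99 and 30.4 beside Chow values of 9.36, 10.4 and 12.3. So did Cnn1, with 24.7, 0.798 and 10.1 beside 1.18, 1.43 and 2.45. The list joins such smooth muscle genes with pericyte genes. Of its 9 tested markers, 4 had a positive estimate, and the median log2 fold change was -0.29. None of the 10 was higher in all HFpEF libraries than in all Chow libraries, and the pericyte channel genes Kcnj8 (-0.50) and Abcc9 (-0.81) were lower in all of them. The 10 tendon, cartilage and valve markers summed to an FPKM of 11.1 to 16.4 in the Chow libraries and 81.8, 47.9 and 59.3 in HFpEF replicates 1, 2 and 3. Cilp2 alone held 29.6 of the sum in HFpEF replicate 2, and had 0.0814, 0.178 and 3.87 in the Chow libraries. The median log2 ratio of these markers to the Chow mean was 1.62, -0.03 and 1.78. Of the 7 tested, 4 were higher at an unadjusted p under 0.05 (10.2% of all genes were). Tnmd and Col2a1, which define tendon and cartilage cells, were at or near 0 in every library. The part of these cell types in the values of Itga8, Flna and Actn1 was not tested.

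Because Flna and Actn1 shared a pattern across libraries and Vcl, an adaptor of the same actin-linking role, differed less, the 250 bases before their starts are shown, 5′ to 3′ on the strand of the gene, from RefSeq on GRCm38.p6. Capitals mark a CArG box, the motif bound by serum response factor, or GGAATG, the core motif of TEAD factors, on either strand, and the motifs do not overlap in these windows. The RefSeq start used for Flna lies inside its gene model.
Flna, chrX:74246535-74246784, minus strand: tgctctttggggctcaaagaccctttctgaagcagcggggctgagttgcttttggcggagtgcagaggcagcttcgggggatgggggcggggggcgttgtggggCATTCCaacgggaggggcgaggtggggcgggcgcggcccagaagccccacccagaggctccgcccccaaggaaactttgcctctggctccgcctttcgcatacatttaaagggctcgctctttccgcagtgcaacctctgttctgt
Actn1, chr12:80260364-80260613, minus strand: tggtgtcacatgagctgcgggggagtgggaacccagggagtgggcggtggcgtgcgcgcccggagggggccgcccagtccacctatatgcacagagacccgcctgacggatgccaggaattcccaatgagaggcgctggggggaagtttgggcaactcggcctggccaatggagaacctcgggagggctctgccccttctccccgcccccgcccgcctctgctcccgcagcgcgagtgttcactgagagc
Vcl, chr14:20929148-20929397, plus strand: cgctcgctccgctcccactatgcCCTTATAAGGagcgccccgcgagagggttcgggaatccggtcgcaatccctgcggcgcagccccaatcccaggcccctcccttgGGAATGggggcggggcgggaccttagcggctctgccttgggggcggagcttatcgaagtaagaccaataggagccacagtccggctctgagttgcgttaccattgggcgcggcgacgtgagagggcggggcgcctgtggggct
The Flna window held GGAATG on the opposite strand 146 bases before the start, the Actn1 window held neither motif, and the Vcl window held a CArG box 227 bases and GGAATG 143 bases before the start. Promoters of 33 of the 46 members were matched. They had 39 windows, since some genes have more than 1 start. A CArG box was in 3 of these windows (7.69%, those of Fermt2, Itgb6 and Vcl), beside 1.47% of all 32851 windows of this length, and GGAATG in 5 (12.8%, those of Actn4, Flna, Itga10, Itgb1 and Vcl), beside 12.6% of all windows. A match is a description of these letters and does not show that a factor binds there.

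The kinases and scaffolds differed from each other. Src (chr2:157418444-157471862), the tyrosine kinase that acts with FAK at adhesions, had an FPKM of 1.64, 1.70 and 1.74 in the Chow and 3.03, 2.94 and 4.42 in the HFpEF libraries. The Chow values were within a narrow range, and every HFpEF library was well above it. The log2 fold change was 0.97 (SE 0.18, adjusted p = 0.0988 by limma). Ptk2, which encodes FAK itself, had 3.91, 4.32 and 3.92 against 3.44, 3.58 and 4.23 (-0.11, SE 0.12, adjusted p = 0.6 by limma), with overlap. Paxillin (Pxn), the scaffold that both kinases phosphorylate, had 8.02, 8.12 and 8.06 against 8.32, 8.47 and 9.96 (0.14, SE 0.11, adjusted p = 0.441 by limma), a small difference with no overlap. Bcar1, the stretch-sensitive scaffold p130Cas, had 7.11, 7.41 and 6.93 against 6.50, 8.18 and 10.5 (0.20, SE 0.18, adjusted p = 0.502 by limma), and its HFpEF libraries lay on both sides of the Chow range.

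Of the integrin activators, the leukocyte kindlin Fermt3 had the largest estimate. Its FPKM was 1.90, 2.97 and 2.08 in the Chow and 3.40, 3.76 and 8.80 in the HFpEF libraries (1.06, SE 0.38, adjusted p = 0.177 by limma), with HFpEF replicate 3 highest as for Itgb2. Fermt2, the kindlin of heart muscle, had 37.3, 38.4 and 36.4 against 36.1, 32.5 and 31.6 (-0.16, SE 0.10, adjusted p = 0.351 by limma). Tln1, the talin of most cells, had 24.0, 23.2 and 23.9 against 29.0, 24.2 and 31.8 (0.25, SE 0.12, adjusted p = 0.275 by limma). Tln2, the talin of mature muscle, overlapped between groups, at 7.05, 7.80 and 7.59 against 7.14, 6.60 and 4.91 (-0.28, SE 0.16, adjusted p = 0.318 by limma), and HFpEF replicate 3 was lowest. Every HFpEF library was above the Chow range for Tln1 and below it for Fermt2, in each case by little in the nearest library.

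In the complex of ILK, PINCH and parvin, Parva was higher and Lims1 and Parvb were lower in every HFpEF library than in every Chow library. Lims1, which encodes PINCH1, had an FPKM of 32.5, 33.2 and 33.3 in the Chow and 32.2, 32.4 and 31.9 in the HFpEF libraries (-0.04, SE 0.09, adjusted p = 0.82 by limma). Lims2, which encodes PINCH2, had 30.7, 32.3 and 32.5 against 31.8, 27.4 and 17.8 (-0.35, SE 0.21, adjusted p = 0.349 by limma), and Parvb, the beta-parvin of heart and skeletal muscle, had 19.8, 21.7 and 21.2 against 19.4, 18.7 and 12.0 (-0.35, SE 0.19, adjusted p = 0.313 by limma). HFpEF replicate 3 was the lowest library for both. Parva, the widely expressed alpha-parvin, had 5.94, 6.19 and 6.17 against 7.26, 7.19 and 8.89 (0.34, SE 0.12, adjusted p = 0.167 by limma), with all HFpEF libraries above the Chow range. The row of Ilk held only 6 to 32 reads per library, and 89.7% of its exon bases lie within the models of Taf10 and Rrp8 on the other strand, so that its FPKM (0.154 to 0.684) is uncertain where reads were counted without strand.

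In the talin and parvin pairs, the widely expressed form made up a larger share in the HFpEF group. Tln1 made up 74.9 to 77.3% of the talin FPKM in the Chow libraries and 80.2, 78.6 and 86.6% in the HFpEF libraries. Parva made up 22.6 ± 0.478% of the parvin FPKM in the Chow group and 27.2, 27.7 and 42.5% in the HFpEF libraries. Neither pair overlapped between groups. Lims1 made up 50.9 ± 0.496% of the PINCH FPKM and 50.3, 54.1 and 64.3%, and Actn1 made up 19.9 ± 1.37% of the non-muscle alpha-actinin FPKM and 37.6, 19.2 and 40.1%. These pairs did overlap, the first through HFpEF replicate 1 and the second through replicate 2. The ratio of Fermt3 to Fermt2 was -4.04 ± 0.31 in the Chow group and -3.41, -3.11 and -1.84 in the HFpEF libraries on the log2 scale, without overlap. All 10 cardiomyocyte markers were lower in every HFpEF library than in every Chow library (19.8% of all genes were). In HFpEF replicate 1 the markers had a median log2 ratio of -0.47 to the Chow mean. Tln2 (-0.06), Lims2 (-0.003), Parvb (-0.10) and Fermt2 (-0.05) differed little there. In HFpEF replicate 3 the markers were at -1.05, beside -0.60 for Tln2, -0.84 for Lims2, -0.79 for Parvb and -0.24 for Fermt2. The part of cardiomyocytes in these ratios was not tested.

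Subunits and adaptors were then compared as classes. The median log2 fold change was 0.64 over the 22 subunits and 0.20 over the 18 adaptors, a difference of 0.43 that was not tested. Without Itgam and Itgb8, which passed the filter only through the HFpEF libraries, the subunit median was 0.53 and the difference 0.32. By library, the median log2 ratio to the Chow mean was 0.51, 0.34 and 1.20 for the 22 subunits in HFpEF replicates 1, 2 and 3. For the adaptors it was 0.17, 0.043 and 0.46, so the median of all 22 subunits was the higher in each. The 22 include Itgam and Itgb8, and medians by library without them were not taken, so this order rests partly on the filter. Without HFpEF replicate 3 the medians were 0.42 and 0.080. Without the leukocyte subunits and Itgbl1, the median of the remaining 16 subunits, which still held Itgb8, was 0.36 and the difference from the adaptors 0.15. By library, these 16 had medians of 0.37, -0.018 and 0.70 in HFpEF replicates 1, 2 and 3. In replicate 2 their median thus lay below that of the adaptors. With all 22 subunits but without Chow replicate 3, the difference was 0.16. The leukocyte chains and Itgbl1 were removed together, so their separate parts were not tested.

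**Figure D4:**
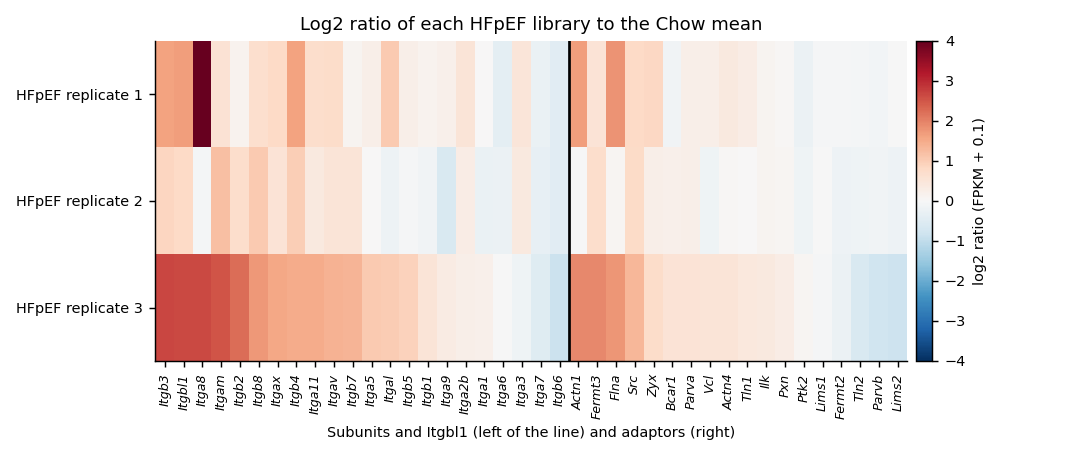
Heat map of the log2 ratio of each HFpEF library (rows) to the Chow mean for each tested member (columns), subunits and Itgbl1 left of the line and adaptors right of it, on FPKM + 0.1. HFpEF replicate 3 carries the highest value of the 3 for 26 of the 40 members.

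The members did not follow 1 order across the HFpEF libraries, but HFpEF replicate 3 was most often highest. It was the highest HFpEF library for 26 members (65.0%, beside 38.5% of all genes), replicate 1 for 12 (30.0%, beside 29.9%) and replicate 2 for 2 (5.00%, beside 31.6%). HFpEF replicate 2 was the lowest for 21 members (52.5%, beside 27.1% of all genes). The calls depended on the library left out. Without HFpEF replicate 3, 4 of 40 members passed an adjusted p of 0.05 by limma, a share close to the 8.36% of all genes that did. Itgav (0.63, SE 0.13, adjusted p = 0.0436 by limma), Src (0.79, SE 0.13, adjusted p = 0.024) and Itgb4 (1.29, SE 0.29, adjusted p = 0.0495) rose in that fit, and Itga7 fell (-0.30, SE 0.07, adjusted p = 0.0484). Without HFpEF replicate 2, Flna (1.77, SE 0.12, adjusted p = 0.0341 by limma) and Actn1 (1.80, SE 0.14, adjusted p = 0.0341) rose, while 0.373% of all genes passed. Among the fits run, each of these genes passed only in the fit without the named library.

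**Figure D5:**
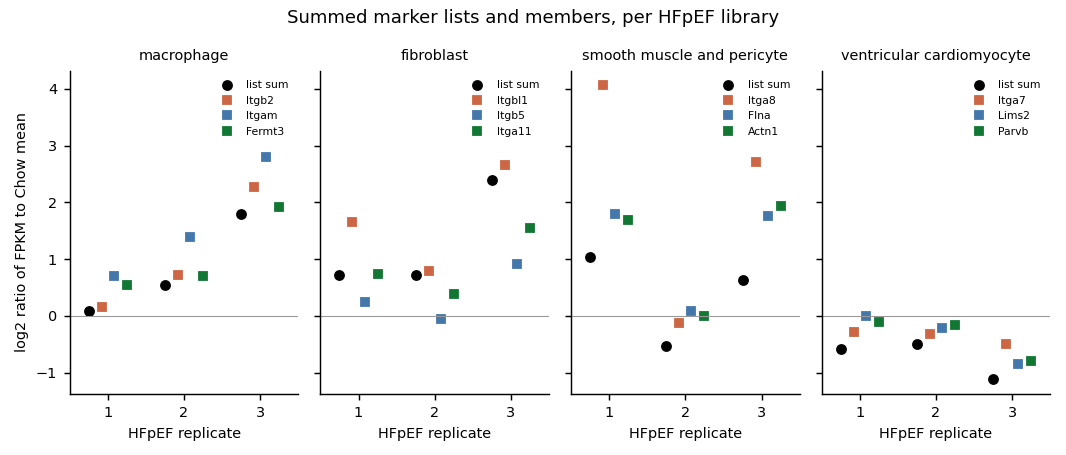
The log2 ratio to the mean Chow FPKM in HFpEF replicates 1, 2 and 3 is drawn for the summed marker list of a cell type (black points) and for 3 members (coloured squares) in each panel, the members having been chosen after their values were seen. The macrophage sum and Itgb2 are highest in replicate 3, and the cardiomyocyte sum is below the Chow mean in all 3. The joint smooth muscle and pericyte sum and Flna are above the Chow mean in replicates 1 and 3.

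Of the 10 fibroblast markers, 8 were higher in every HFpEF library than in every Chow library (15.5% of all genes were). Their summed FPKM was 692 to 875 in the Chow group and 1285, 1293 and 4107 in the HFpEF libraries. Their part in the values of Itgbl1, Itga11 and Itgb5 was not tested. Mesothelial markers summed to 18.7 to 29.3 and to 36.4, 131 and 58.6. Endothelial markers, whose cells carry Itgb1, Itga5 and Itga6, summed to 304 to 340 and to 304, 267 and 272. Of these markers, 3 of 10 were lower in every HFpEF library (19.8% of all genes were). Platelet markers summed to 20.1 to 27.3 and to 29.9, 25.2 and 34.1.

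Other genes of the pathway were taken from lists by role, none of which held a gene with an adjusted p under 0.05 by limma. Without HFpEF replicate 3, where 8.36% of all genes passed, 5 ligands, 1 activator, 2 scaffolds and 1 linker rose and 3 linkers fell by that measure. Their counts at an unadjusted p under 0.05 in all libraries follow, beside 10.2% of all genes higher and 13.1% lower. Of 21 tested integrin ligands, 5 were higher and 2 lower at an unadjusted p under 0.05, with a median log2 fold change of 0.47, or 0.09 without HFpEF replicate 3. That library alone held a summed ligand FPKM of 5999, against 549 and 629 in the other HFpEF libraries and 462 to 464 in the Chow group. Thbs1, thrombospondin 1, which binds several integrins and CD47, had an FPKM of 0.960, 1.53 and 1.51 in the Chow and 17.1, 1.74 and 44.7 in the HFpEF libraries (3.00, SE 1.08, adjusted p = 0.179 by limma). As for Itga8, Flna and Actn1, HFpEF replicates 1 and 3 were far above the Chow range, and replicate 2 was close to it. Postn, periostin (3.28, SE 1.14, adjusted p = 0.17 by limma), and Col1a2, a chain of collagen I (2.74, SE 1.10, adjusted p = 0.205 by limma), were the others of the 3 largest estimates among ligands at an unadjusted p under 0.05. Col1a1, above that p, had 3.08 (SE 1.32, adjusted p = 0.223 by limma). Fn1, fibronectin, chosen after its values were seen, had 6.16, 6.12 and 6.22 against 13.6, 16.8 and 161 (2.42, SE 0.89, adjusted p = 0.185 by limma), and all HFpEF libraries were above all Chow libraries. Without HFpEF replicate 3, Fn1 (1.28, adjusted p = 0.0118 by limma), Postn (1.84, adjusted p = 0.0118) and Col1a2 (1.34, adjusted p = 0.0132) still rose, with Col1a1 and Vcam1. Lama5, a laminin chain of basement membranes, had a log2 fold change of -0.37 (SE 0.11, adjusted p = 0.136 by limma), and Vtn, vitronectin, of -0.54 (SE 0.18, adjusted p = 0.165 by limma).

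Of 10 tested activators and inhibitors, 2 were higher and 1 lower at an unadjusted p under 0.05, with a median of 0.07. The higher genes were Dok1, which competes with talin for the beta tail (1.39, SE 0.46, adjusted p = 0.161 by limma), and Apbb1ip, which encodes RIAM and brings talin to the membrane (0.97, SE 0.27, adjusted p = 0.129 by limma). Of 22 other adhesion scaffolds, 3 were higher and 1 lower, with a median of 0.03. Ptk2b, which encodes PYK2, the relative of FAK, had an FPKM of 1.46, 1.35 and 1.42 in the Chow and 2.60, 3.69 and 3.38 in the HFpEF libraries (1.12, SE 0.17, adjusted p = 0.0757 by limma). All of its HFpEF values were above the Chow values, as for Src and unlike Ptk2. Without HFpEF replicate 3, Ptk2b (1.08, adjusted p = 0.0275 by limma) and Tns3 (0.70, adjusted p = 0.0322) rose. Tns3, a tensin, had 3.90, 3.37 and 3.81 against 5.49, 6.63 and 7.97 (0.83, SE 0.16, adjusted p = 0.0988 by limma), also without overlap.

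Of 20 other actin and Z-disc linkers, 4 were higher and 4 lower, with a median of -0.02. Csrp1, a smooth muscle LIM protein, had an FPKM of 26.1, 32.5 and 25.4 against 78.9, 29.5 and 68.7 (0.96, SE 0.37, adjusted p = 0.192 by limma), with HFpEF replicate 2 inside the Chow range. Fhl2, a LIM protein of the cardiac Z-disc, had 733, 845 and 844 against 505, 526 and 418 (-0.74, SE 0.17, adjusted p = 0.109 by limma). Actn2, the alpha-actinin of the sarcomere, had 430, 448 and 475 against 343, 349 and 232 (-0.57, SE 0.20, adjusted p = 0.169 by limma). In the fit without HFpEF replicate 3 they fell, with adjusted p = 0.0159 for Fhl2 (-0.65) and 0.0253 for Actn2 (-0.38) by limma. Both muscle genes lay below the Chow range in every HFpEF library, whereas the non-muscle Actn1 lay above it in HFpEF replicates 1 and 3.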

How the data were processed

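Left ventricular RNA was sequenced in 3 Chow and 3 HFpEF libraries. The authors aligned reads with HISAT2 to GRCm38 and counted them per gene with featureCounts, and the deposited table gives FPKM for 54532 gene identifiers. The library kit was a SMARTER mRNA-Seq kit, and the annotation release, the strand setting of the counting and the exact FPKM formula are not given in the sources used here. Symbols, coordinates and exon lengths came from GENCODE M21 (GRCm38), which held 54495 of the identifiers. FPKM multiplied by exon length gave whole reads for 96.1 to 96.2% of values above 0 (relative tolerance 1e-06). These reads set the recovered sums and the voom alternative, and the sums did not match the denominators implied by the FPKM scale.

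FPKM values were rescaled by median-of-ratios factors (0.999 to 1.00), and genes whose deposited FPKM reached 0.5 in 3 or more libraries were tested as log2(FPKM + 0.1) with limma 3.58.1 (trend and robust moderation) in R 4.3.3, with Benjamini-Hochberg adjustment over the 14225 genes. A fold change is on this log2 scale and understates the change of low genes. A gene was called where the adjusted p was below 0.05 and the log2 fold change was 2 or more in size. Errors beside FPKM are SD over 3 libraries. Libraries were grouped by their titles, and depth limits the genes with few reads, whose counts are given. The scripts were tested on simulated data. Every member could be named. Values in each library were planned for members past the adjusted p, up to 10 with the largest positive and 6 with the largest negative fold changes, the 2 most abundant of each class and Itgb1, and those of other members, such as Src and Pxn, were added after the values were seen. In each pathway list up to 3 genes per direction with an unadjusted p under 0.05 and the largest fold changes were named, and in each marker list up to 3 by level. The members and the gene lists were chosen with earlier results of these data known. Alternatives were another scaling, pseudocounts of 1 and 0.01, an FPKM minimum of 1 or none, voom on recovered reads, plain moderation, a replicate block and leaving out each library.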

Additional observations from a re-analysis of the deposited data

How the results depend on the processing

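No member met both limits, and the direction of the members was stable, under each alternative except as follows. Quantile normalization reversed Lims1 (0.11) and Ilk (-0.056). Leaving out 1 library at a time reversed Ilk (-0.33 to 0.48), Itga9 (-0.20 to 0.26), Itga1 (-0.14 to 0.10) and Itgb1 (-0.0085 to 0.32). It moved the members with an unadjusted p under 0.05 from 9 (without Chow replicate 2) to 22 (without HFpEF replicate 2), where 13.4% and 24.5% of all genes passed, those higher from 7 to 20, those lower from 2 to 3, those with an adjusted p under 0.05 by limma from 0 to 4, and the subunit minus adaptor median from 0.16 to 0.58. The 16 members at an unadjusted p under 0.05 became 11 without Chow replicate 1 and 10 without Chow replicate 3, beside 14.6% and 14.8% of all genes. Without the leukocyte subunits and Itgbl1 the difference between the medians was 0.15. The causes were not tested. Over all genes, the genes called by both limits numbered 8, and 2 with a pseudocount of 1, 3 with 0.01, 5 with an FPKM minimum of 1, 19 with plain moderation, 0 with voom, 59 without HFpEF replicate 3, 24 without HFpEF replicate 2, 3 without HFpEF replicate 1 and 2 without any 1 Chow library. Same-numbered Chow and HFpEF libraries share only a number (correlations of their deviations from -0.073 to -0.041), and the replicate block left 16 members at an unadjusted p under 0.05, 0 by adjusted p and 2 genes called in all. Few reads limit Ilk, Itgad, Itgae and Itgb2l, and with 3 libraries a group 1 library can decide a call.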
